A study of Mus musculus with 4 samples.

Results

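Genes for proteins stored in neutrophil granules were followed in leukocytes of the inflamed mouse colon. The set was fixed by symbol and held 10 of the 32285 genes in the count matrices: Ngp, Ltf, Camp, Lcn2 and Mmp8 for specific granules, Mmp9 for gelatinase granules, Elane, Mpo and Prtn3 for primary granules, and Cebpe, a transcription factor gene. All 10 were found. For each gene, the share of cells with at least 1 UMI (unique molecular identifier, a count of captured RNA molecules) and the CPM, a gene's summed UMIs scaled to all UMIs of the class, were read in neutrophils, monocytes and the other cell classes of each sample. The 4 samples held CD45+ cells selected with beads from colonic lamina propria of AhR-/- mice (AhR-null, on the C57BL/6 background) and of AhR+/+ littermates caged with them. AhR, the aryl hydrocarbon receptor, is a transcription factor switched on by ligands. All mice drank 2% dextran sulphate sodium (DSS), which injures the colonic epithelium, for 7 days, and tissue was taken on day 8. Their age was 10 weeks in the sample labels and 8 weeks in the study text. Cells of 3 mice were mixed in each sample, so the spread between mice was not measured. The labels give no genotype to a sample, so the samples are called sample 1 to sample 4, each is reported on its own, and no test between samples was made.

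Neutrophils build their granules in order while they mature in the bone marrow. Primary granules, with myeloperoxidase (Mpo) and the serine proteases neutrophil elastase (Elane) and proteinase 3 (Prtn3), are filled at the promyelocyte stage. Specific granules follow at the myelocyte stage, under control of C/EBP-epsilon (Cebpe), and gelatinase granules after that. The transcripts of each stage fall away as the next begins, and blood neutrophils carry the proteins with little of the early RNA. Monocytes share the promyelocyte's relatives as precursors and can also make some primary granule proteins.

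Of the 5 specific granule genes, all but Lcn2 are on chromosome 9. In GRCm38 coordinates, Ngp, which codes for neutrophilic granule protein, was at chr9:110419747-110423012 on the plus strand. Ltf, the lactotransferrin gene, was at chr9:111019271-111042767 (plus), and Camp, the cathelicidin gene, at chr9:109847379-109849617 (minus). Lcn2, which codes for the iron carrier binding protein lipocalin 2, was at chr2:32384633-32388252 (minus), and Mmp8, neutrophil collagenase, at chr9:7558456-7568485 (plus). Mmp9, gelatinase B, was at chr2:164940780-164955850 (plus), Mpo at chr11:87793581-87804413 (plus) and Cebpe at chr14:54710360-54712174 (minus). The serine protease genes Prtn3 (chr10:79874476-79883174) and Elane (chr10:79886247-79888215) were neighbours on the plus strand. Mpo overlapped an antisense gene (Gm11505) and Prtn3 overlapped Plppr3 on the opposite strand. The sources used here do not give how strand was used in counting, so reads of these pairs could not be told apart. The other 8 genes overlapped none.

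RefSeq promoter sequences (GRCm38.p6, from 250 bases before to 50 bases after a RefSeq transcript start) were found for 8 of the 10 genes, all but Mmp9 and Cebpe. Those of the 5 specific granule genes and of Prtn3 are printed 5′ to 3′ on the gene's own strand, because the results below turn on these 6 genes. The capitals mark matches on either strand to TTGCNNAA, a C/EBP motif, or GAGGAA, a motif of the myeloid factor PU.1. The RefSeq start lay 5191 bases inside the GENCODE gene of Prtn3 and 513 bases inside that of Lcn2, and within 203 bases of the GENCODE start for the other 6, so the windows need not be those of the longest transcript. The windows were Ngp chr9:110419558-110419857 (plus), Ltf chr9:111019042-111019341 (plus), Camp chr9:109849407-109849706 (minus), Lcn2 chr2:32387690-32387989 (minus), Mmp8 chr9:7558179-7558478 (plus) and Prtn3 chr10:79879417-79879716 (plus).
Ngp: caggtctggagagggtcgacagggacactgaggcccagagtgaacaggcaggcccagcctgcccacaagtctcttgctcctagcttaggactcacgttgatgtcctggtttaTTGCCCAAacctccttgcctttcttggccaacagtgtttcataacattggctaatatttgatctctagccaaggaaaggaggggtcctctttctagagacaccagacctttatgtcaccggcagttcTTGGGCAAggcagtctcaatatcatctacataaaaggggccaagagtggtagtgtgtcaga
Ltf: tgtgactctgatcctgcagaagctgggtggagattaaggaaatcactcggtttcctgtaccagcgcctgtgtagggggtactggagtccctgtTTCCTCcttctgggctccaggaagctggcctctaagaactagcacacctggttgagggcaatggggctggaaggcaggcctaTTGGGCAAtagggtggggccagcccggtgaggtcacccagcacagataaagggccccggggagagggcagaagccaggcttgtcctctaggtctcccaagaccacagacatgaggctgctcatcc
Camp: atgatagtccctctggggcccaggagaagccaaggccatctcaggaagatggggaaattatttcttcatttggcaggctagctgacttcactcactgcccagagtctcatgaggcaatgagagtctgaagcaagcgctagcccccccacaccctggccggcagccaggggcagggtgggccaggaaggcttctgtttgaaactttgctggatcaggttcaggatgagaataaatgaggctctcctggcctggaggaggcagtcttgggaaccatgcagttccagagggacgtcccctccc
Lcn2: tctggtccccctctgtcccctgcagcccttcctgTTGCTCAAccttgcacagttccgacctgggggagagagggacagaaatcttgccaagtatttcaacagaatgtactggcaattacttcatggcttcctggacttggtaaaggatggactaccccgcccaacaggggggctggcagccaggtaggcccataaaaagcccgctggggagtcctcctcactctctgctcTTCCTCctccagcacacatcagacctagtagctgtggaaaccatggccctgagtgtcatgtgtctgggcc
Mmp8: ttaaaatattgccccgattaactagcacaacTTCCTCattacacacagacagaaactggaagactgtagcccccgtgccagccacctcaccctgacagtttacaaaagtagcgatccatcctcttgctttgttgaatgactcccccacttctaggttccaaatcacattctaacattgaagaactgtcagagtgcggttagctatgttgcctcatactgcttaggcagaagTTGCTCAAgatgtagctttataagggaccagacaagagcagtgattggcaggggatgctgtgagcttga
Prtn3: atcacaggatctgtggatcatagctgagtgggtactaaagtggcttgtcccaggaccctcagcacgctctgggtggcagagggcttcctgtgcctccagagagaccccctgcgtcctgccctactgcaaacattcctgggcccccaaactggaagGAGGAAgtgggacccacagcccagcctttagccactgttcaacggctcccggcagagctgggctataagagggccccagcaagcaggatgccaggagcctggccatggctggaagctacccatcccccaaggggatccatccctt
The C/EBP motif occurred in the windows of 4 of the 8 genes, Ngp (at 2 positions), Ltf, Lcn2 and Mmp8, all specific granule genes. It occurred in 3547 of all 32851 RefSeq promoter windows of this length (10.8%). The PU.1 motif occurred in 6 of the 8, Ltf, Lcn2, Mmp8, Elane, Mpo and Prtn3, against 9289 of all windows (28.3%). Both motifs lay in the windows of Ltf, Lcn2 and Mmp8, against 958 of all windows (2.92%), and Camp had neither. No matches overlapped. A match of these letters is a description of the sequence, not evidence of binding.

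The matrices held 45229 cells, 8493 to 13730 per sample, with 72509408 to 135516016 UMIs per sample. After filters on genes and mitochondrial UMIs and removal of the highest doublet scores, 39550 cells were kept, 7539 to 11824 per sample, with medians of 5642 to 7081 UMIs per cell. Between any pair of samples, 0.271% to 0.423% of the smaller sample's barcodes were shared. Each cell was placed in 1 of 12 classes from marker genes that left out all 10 granule genes. The classes are called by their usual names for short. Neutrophils were set by 12 genes, among them S100a8, S100a9, Csf3r, Cxcr2, Retnlg and Ly6g. Their summed level was 131875 to 201009 CPM in neutrophils and 2345 to 7152 CPM in monocytes. Monocyte markers summed to 5508 to 6859 CPM in neutrophils and to 10114 to 11055 CPM in monocytes. A class was read in a sample only where it had at least 50 cells there. All intervals are exact 95% intervals that cover counting error only, binomial for shares and Poisson for CPM.

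Neutrophils were 5829 of the kept cells (14.7%). They made up 13.7% (13.1-14.4) of sample 1, 5.62% (5.22-6.05) of sample 2, 23.1% (22.3-24.0) of sample 3 and 19.1% (18.2-19.98) of sample 4. Sample 2 had the fewest, 665 cells, and sample 3 the most, 2351. Their median depth was 6002, 2976, 3524 and 5102 UMIs in samples 1 to 4. Of the 5829 cells, 193 lay within 0.4 above the score that set the class, and 593 other cells lay within 0.4 below it. Another 2109 kept cells reached both that score and the one of another class, and were not counted as neutrophils. They were 384, 407, 787 and 531 cells in samples 1 to 4. A clustering that left out the granule genes placed 5505 of the 5829 in clusters with neutrophil markers.

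Ngp was detected in most neutrophils of samples 1, 3 and 4. Its level in neutrophils was 2339, 1152, 2173 and 4057 CPM in samples 1 to 4, and 67.0%, 44.5%, 59.4% and 76.9% of neutrophils had a Ngp UMI. Sample 4 was highest and sample 2 lowest on both measures. With every cell thinned to 1000 UMIs, so that depth was equal, the shares were 47.3%, 32.0%, 43.2% and 62.5%, in the same order. Thinning left out 20 to 35 shallower neutrophils per sample. B cells, which do not make granule proteins and here stand for the background, had a Ngp UMI in 1.38% to 5.38% of cells (3.89 to 27.1 CPM, median depth 3859 to 5178 UMIs). Free RNA and neutrophils caught in the same droplet were not separated in this background. Of 6881 B cells, 13 had 5 or more Ngp UMIs, and the highest had 21. Of all 113171 Ngp UMIs in the kept cells, 70.5% were in neutrophils, 27.7% in cells past the gates of several classes and 0.405% in monocytes and macrophages together. In sample 2, neutrophils held 48.7% and cells past several gates 47.4%.

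Ltf, whose product lactoferrin binds iron, was at 282, 50.03, 162 and 419 CPM in neutrophils of samples 1 to 4. A Ltf UMI was found in 26.2%, 5.56%, 9.57% and 25.9% of them. Camp, the source of an antimicrobial peptide, was at 300.1, 76.9, 165 and 320.1 CPM, with a UMI in 28.8%, 10.1%, 10.7% and 22.9% of neutrophils. Both genes were low in sample 2 and higher in samples 1 and 4 than in samples 2 and 3. At 1000 UMIs per cell the shares were 2.19% to 11.5% for Ltf and 4.79% to 11.4% for Camp. B cells had a UMI of Ltf in 0.197% to 1.28% and of Camp in 0.230% to 1.36% of cells. Neutrophils held 74.4% of all Ltf UMIs and 75.5% of all Camp UMIs (43.8% and 43.9% in sample 2).

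Lcn2, Mmp8 and Mmp9 were seen in most neutrophils of every sample. Lcn2 was at 5681, 4158, 2941 and 4745 CPM, and 92.7%, 80.9%, 92.6% and 96.4% of neutrophils had a UMI of it. Mmp8 was at 1888, 1083, 1332 and 2021 CPM, with a UMI in 86.5%, 62.7%, 83.7% and 92.2% of neutrophils. Mmp9 was at 1147, 1016, 588 and 868 CPM, with a UMI in 93.0%, 82.9%, 73.8% and 83.8%. The samples did not order alike in these genes. By CPM, Lcn2 and Mmp9 were lowest in sample 3, while Ngp, Ltf, Camp and Mmp8 were lowest in sample 2. By share of cells with a UMI, Lcn2 was lowest in sample 2. Equal depth gave shares of 75.2% to 90.5% for Lcn2, 46.1% to 74.1% for Mmp8 and 40.7% to 59.7% for Mmp9. The background in B cells was 8.82% to 15.96% of cells for Lcn2 (32.9 to 59.2 CPM), 3.09% to 6.15% for Mmp8 and 2.34% to 4.36% for Mmp9.

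Set against monocytes of the same sample, 6 of the 8 granule genes that could be read were at least 4-fold higher in neutrophils in all 4 samples: Ngp, Ltf, Camp, Lcn2, Mmp8 and Mmp9. A gene was read where it had at least 10 UMIs over both classes in every sample, and 2.78% of all 9965 such genes (277) were as much higher in neutrophils. Ngp was 420-, 246-, 314- and 592-fold higher in samples 1 to 4. Mmp9 was 102- to 202-fold higher. Ltf was 27.8- to 403-fold and Camp 213- to 400-fold higher, on 5 to 22 and 1 to 11 monocyte UMIs per sample, and in sample 2 the single Camp UMI in monocytes left an interval of 37.8 to 8478. Lcn2 was 31.9-, 27.9-, 10.0- and 11.2-fold higher and Mmp8 8.16-, 6.23-, 4.65- and 4.89-fold higher. Mmp8 was thus under 8-fold in samples 2, 3 and 4. Prtn3 differed the other way and is described with the primary granule genes.

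**Figure D1:**
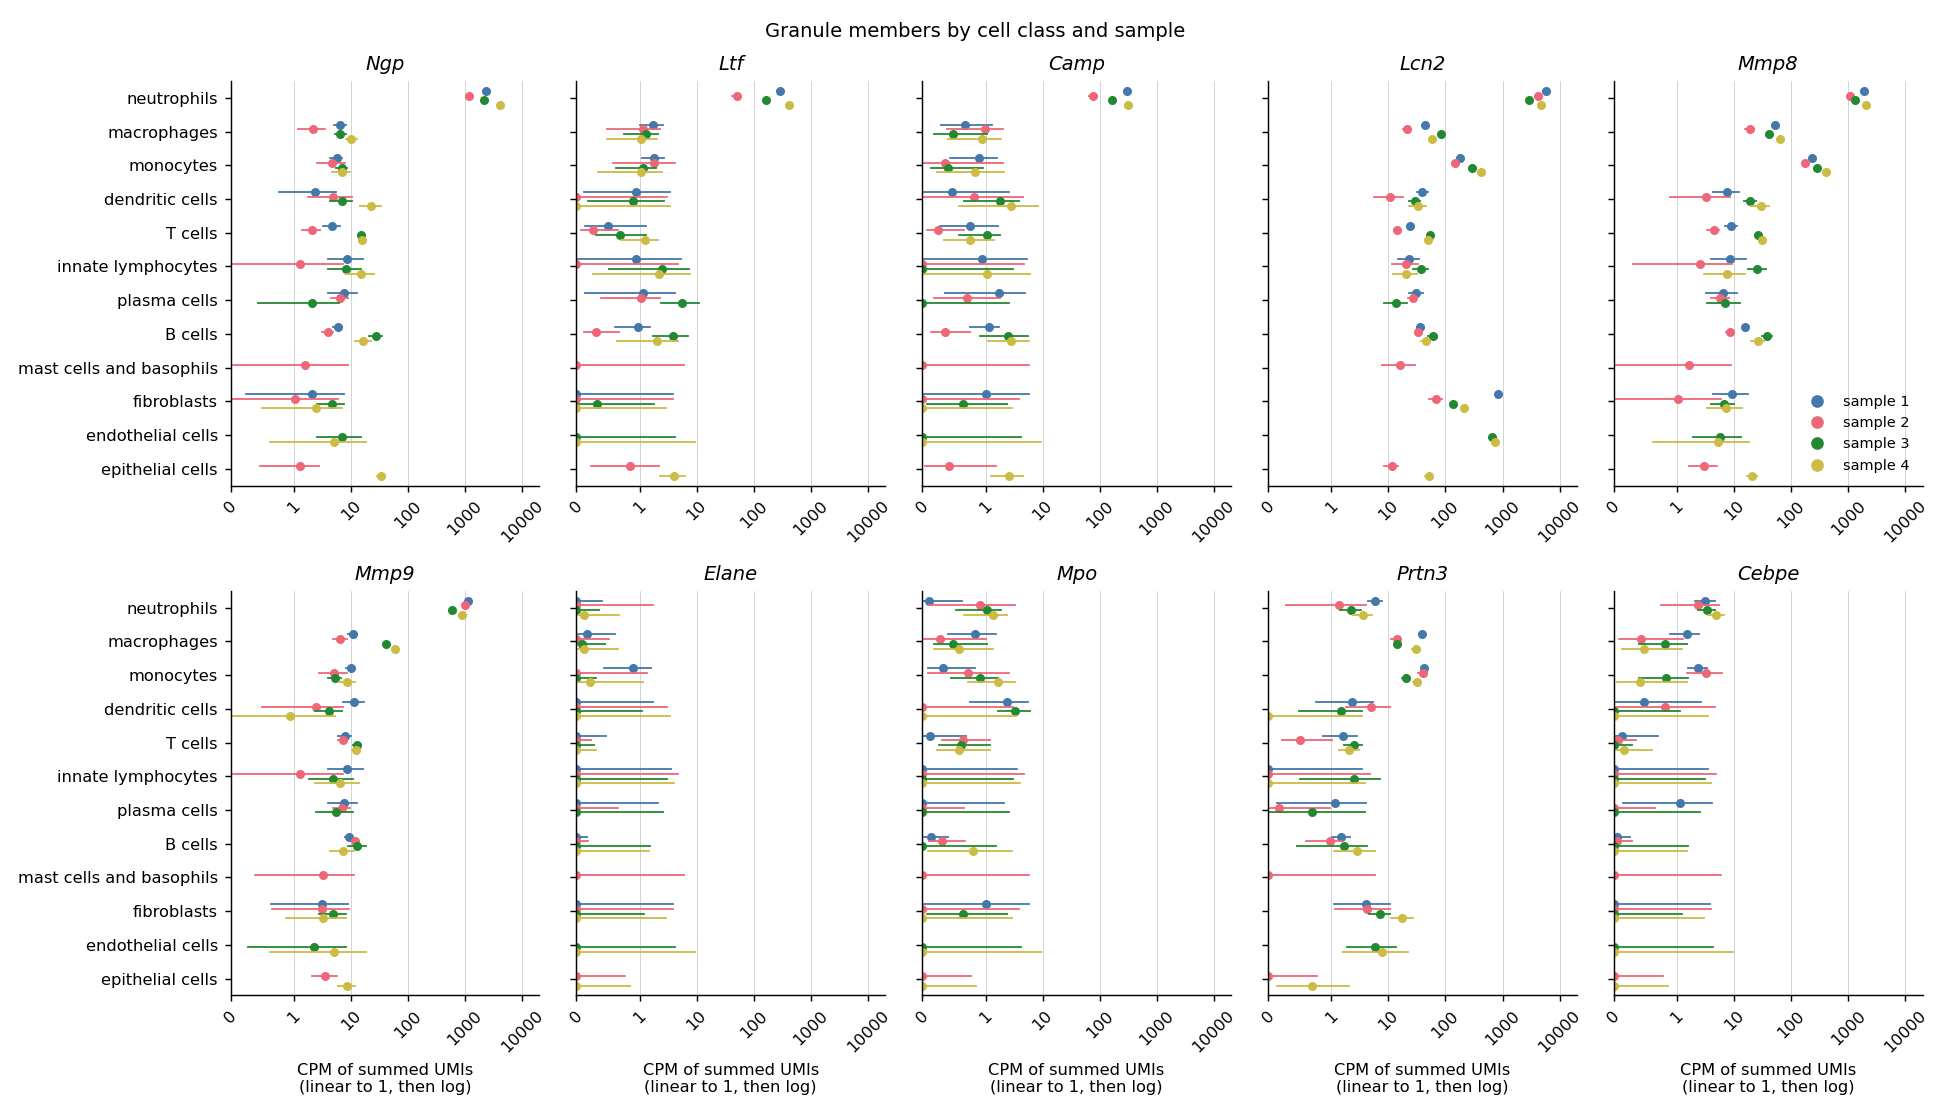
CPM of summed UMIs (x axis, linear to 1 and then log) of the 10 granule genes in each cell class (y axis), with 1 point per sample where the class had at least 50 cells and bars for exact 95% Poisson intervals. Ngp, Ltf, Camp, Lcn2, Mmp8 and Mmp9 lie farthest right in neutrophils in all 4 samples, Elane and Mpo lie near 0 in every class, and Prtn3 lies farthest right in monocytes and macrophages.

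Transcripts of the primary granule genes Elane and Mpo were nearly absent. Elane, the elastase gene, had 21 UMIs in all kept cells, each in a different cell, of which 1 was a neutrophil, 12 monocytes and 4 macrophages. Of the 12 UMIs in monocytes, 11 were in sample 1, where the ratio of neutrophils to monocytes was 0 (0-0.550). No Elane UMI was found in neutrophils of samples 1 to 3, where 3 counts would have been 0.335, 1.36 and 0.288 CPM. Mpo, the myeloperoxidase gene, had 205 UMIs in 160 kept cells, and neutrophils held 25 of these UMIs. Mpo was at 0.112, 0.910, 1.06 and 1.32 CPM in neutrophils of samples 1 to 4 (1, 2, 11 and 11 UMIs) and at 0.323, 0.720, 0.908 and 1.66 CPM in monocytes. Neither class stood apart from the other in Mpo at this depth. Both genes were under the minimum of 10 UMIs and so were left out of the count against monocytes.

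Prtn3, which codes for proteinase 3, was read in mononuclear phagocytes rather than in neutrophils. Its level in monocytes was 41.8, 39.6, 19.97 and 31.3 CPM in samples 1 to 4, from 517, 110, 242 and 151 UMIs, against 5.92, 1.36, 2.21 and 3.61 CPM in neutrophils, from 53, 3, 23 and 30 UMIs. Monocytes were above neutrophils in every sample, and no intervals overlapped. The neutrophil level was 0.142 (0.105-0.188), 0.0344 (0.00700-0.103), 0.110 (0.0688-0.170) and 0.115 (0.0752-0.171) of the monocyte level, and Prtn3 was the 1 gene of the 8 at least 4-fold higher in monocytes in all samples, as were 837 of all 9965 genes (8.4%). A Prtn3 UMI was found in 24.7%, 16.7%, 11.5% and 15.5% of monocytes (median depth 6204 to 9732 UMIs) and in 3.56%, 0.451%, 0.978% and 2.09% of neutrophils. The background in B cells was 0.585% to 1.03% of cells (0.985 to 2.79 CPM). The neutrophils were at 3.97 (2.51-6.37), 1.39 (0.263-4.71), 1.32 (0.453-5.27) and 1.30 (0.558-3.49) times the Prtn3 CPM of the B cells of their own sample, so above them beyond counting error in sample 1 and not in the other 3. At 1000 UMIs per cell the monocyte shares were 3.46%, 2.30%, 1.66% and 3.01%, and those of B cells 0% to 0.209%.

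Macrophages also carried Prtn3, at 38.7, 13.86, 14.3 and 29.8 CPM, with a UMI in 19.0%, 5.46%, 9.27% and 12.4% of cells. Their intervals overlapped those of monocytes in samples 1 and 4 and lay below them in samples 2 and 3. Of all 2870 Prtn3 UMIs, monocytes held 1020, macrophages 991 (70.1% together) and neutrophils 109 (3.80%). Fibroblasts were at 4.10, 4.19, 7.16 and 17.5 CPM. Monocytes with a Prtn3 UMI (300, 73, 187 and 108 cells) were set against the other monocytes of their sample. They were compared on 7 of the 11 markers that set the monocyte class, so these genes had also helped to choose the cells. Fn1, the fibronectin gene, was at 600, 980, 1273 and 1582 CPM in the first against 397, 777, 985 and 1196 CPM in the second. Ccr2, the receptor that brings monocytes into tissue, was at 403, 511, 293 and 283 CPM against 331, 377, 210 and 180 CPM. Among the 7, these were the 2 markers higher in cells with Prtn3 in 4 of 4 samples. Ly6c2, Vcan and F13a1 were higher in 3 of 4, while Csf1r, a receptor gene of the mononuclear line, and Ms4a4c were lower in 3 of 4. Csf1r was at 340.1, 332, 343 and 295 CPM against 454, 364, 371 and 294 CPM. Monocytes with Prtn3 were also deeper, with medians of 7460 to 11161 UMIs against 5930 to 9154, and the part of depth in this difference was not tested. Macrophages with a Prtn3 UMI had more of each of these markers but Csf1r than other macrophages in every sample, and less Csf1r. C1qa, among the macrophage markers, was lower in them in every sample, at 1019, 1558, 1056 and 1345 against 1526, 2510, 1397 and 1994 CPM. Mrc1, also a macrophage marker, was lower in samples 2, 3 and 4. Macrophages with Prtn3 too were deeper, with medians of 6353 to 9210 UMIs against 5469 to 8339. No share over all genes stands beside these contrasts.

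Cebpe, the gene of the factor that drives the specific granule programme, was at 3.12, 2.27, 3.36 and 4.82 CPM in neutrophils, from 28, 5, 35 and 40 UMIs, and at 2.34, 3.24, 0.825 and 0.415 CPM in monocytes, from 29, 9, 10 and 2 UMIs. The ratio of neutrophils to monocytes was 4.07 (1.97-9.22) in sample 3 and 11.6 (3.01-99.1) in sample 4, above 1 beyond counting error. In samples 1 and 2 its intervals, 0.765 to 2.32 and 0.185 to 2.33, held 1. A Cebpe UMI was found in 1.82%, 0.752%, 1.45% and 2.50% of neutrophils, against at most 0.0340% of B cells. Of all 293 Cebpe UMIs, neutrophils held 36.9% and monocytes and macrophages 29.0%.

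Outside neutrophils, the CPM of Lcn2 was above that of B cells in stromal cells and monocytes. In fibroblasts, Lcn2 was at 843, 67.0, 133 and 212 CPM in samples 1 to 4, with a UMI in 27.8%, 14.1%, 18.8% and 23.5% of cells. At equal depth the shares were 7.35%, 2.35%, 4.36% and 7.95% (5, 2, 15 and 12 cells), against 3.41%, 1.94%, 3.69% and 3.97% of B cells, so at that depth samples 2 and 3 were close to the background. The high value of sample 1 rested on 72 cells. In endothelial cells, Lcn2 was at 660.0 (607-716) CPM in sample 3 and 735 (653-825) CPM in sample 4, with a UMI in 51.8% and 29.8% of 83 and 57 cells (21.1% and 19.6% at equal depth). Samples 1 and 2 had 22 and 15 endothelial cells and were not read. Endothelial markers summed to 6753 to 7321 CPM in these cells, and neutrophil markers to 357 to 564 CPM. Epithelial cells, read in samples 2 and 4, had 11.3 and 50.8 CPM of Lcn2, against 32.9 and 44.6 CPM in the B cells of those samples.

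To set these values against free RNA of neutrophils, each gene was divided by S100a8, a calcium-binding protein gene among the neutrophil markers, and the ratio was scaled so that it equals 1 in the neutrophils of the same sample. RNA from 1 source would keep 1 value in every class it reaches, and B and T cells, which do not make these proteins, served as the reference. Their values were not all at 1. For Lcn2 they were 0.9502 to 1.48 in B cells and 1.57 to 1.77 in T cells, and epithelial cells were at 0.907 and 1.07. Fibroblasts were at 95.6, 9.99, 14.9 and 35.9 and endothelial cells at 75.6 and 95.01, far above both. Monocytes were at 1.76, 4.86, 3.15 and 1.495, at absolute levels of 178, 149, 294 and 424 CPM. They were above the T cells of their sample in samples 2 and 3 and not beyond counting error in samples 1 and 4. Against B cells, they were above in samples 1, 2 and 3 and not beyond counting error in sample 4. In sample 4, S100a8 itself was at 4021 CPM in monocytes and 413 CPM in T cells.

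For Mmp8 the reference was 1.14 to 2.02 in B cells and 1.77 to 2.48 in T cells. Monocytes were at 6.86, 21.8, 6.78 and 3.42 and macrophages at 4.05 to 7.30, above both in every sample. The levels behind them were 232, 174, 286 and 413 CPM of Mmp8 in monocytes, where 43.8% to 59.9% of cells had a UMI, and 18.7 to 64.1 CPM in macrophages. Mmp9 was at 2.44, 2.27, 9.43 and 15.2 in macrophages, against 2.59, 3.27, 2.12 and 2.28 in T cells, so above T cells in samples 3 and 4 alone. B cells were at 1.72, 1.73, 1.04 and 1.30. Macrophages were above B cells in samples 1, 3 and 4 and not beyond counting error in sample 2. The Mmp9 level in macrophages was 10.7, 6.51, 41.5 and 60.0 CPM. Where a class makes S100a8 itself, as monocytes can, the value falls, so it is a lower estimate there.

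**Figure D2:**
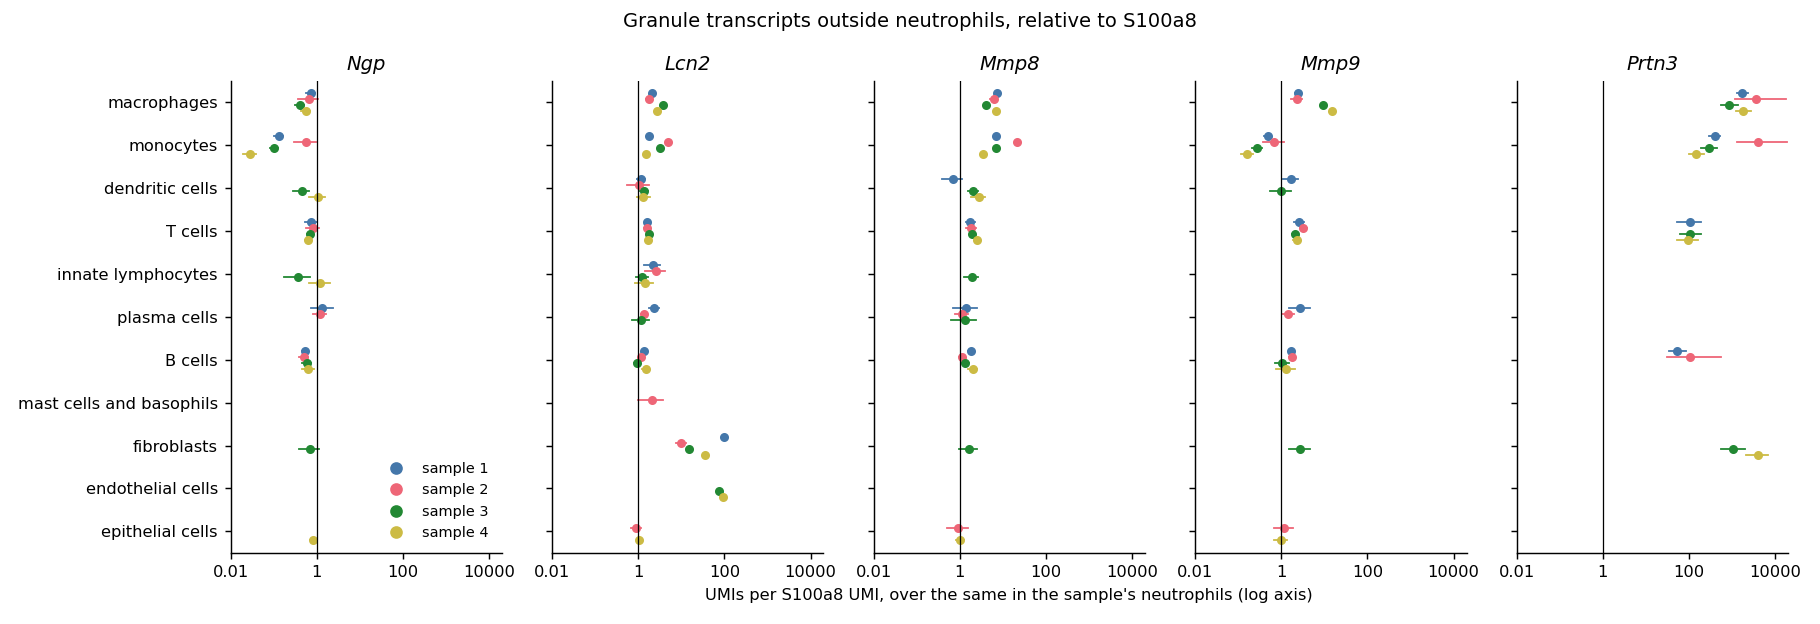
UMIs of 5 granule genes per S100a8 UMI in each class other than neutrophils, over the same in the neutrophils of that sample (x axis, log scale, with a line at 1), 1 point per sample with exact 95% intervals. Points with under 10 UMIs are not drawn; Ngp lies below 1 in monocytes and B cells, Lcn2 lies above 9 in fibroblasts and endothelial cells, and Prtn3, which is scarce in neutrophils, lies high in all classes drawn.

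Ngp in monocytes was at 5.58, 4.68, 6.93 and 6.85 CPM, in the range of B cells. Per S100a8 UMI it was at 0.133, 0.551, 0.101 and 0.0283 of the neutrophil value in monocytes and at 0.502 to 0.633 in B cells. Of 3978 monocytes, 185 had a Ngp UMI, 1 had 5 or more and none had 20. Of 5829 neutrophils, 3719 had a Ngp UMI, 2337 had 5 or more and 1075 had 20 or more. Cells with many Ngp UMIs and monocyte markers lay among the cells past several gates. Of these, 55, 27, 365 and 121 in samples 1 to 4 passed the gate of neutrophils and that of monocytes or macrophages. Their Ngp level was 395, 269, 740 and 1931 CPM, and a Ngp UMI was found in 29.1%, 48.2%, 67.7% and 73.5% of them. Their median depth was 10830 to 12457 UMIs, above the 2976 to 6002 of neutrophils, and whether they were 1 cell or 2 cells in a droplet was not tested.

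Within neutrophils, the Ngp UMIs lay mostly in a small share of cells. The 10% of neutrophils with the most Ngp UMIs held 58.4%, 67.6%, 66.5% and 55.1% of all Ngp UMIs of neutrophils in samples 1 to 4. The highest single cells had 295, 83, 410 and 417 Ngp UMIs, while the median cell had 3, 0, 1 and 6. For Lcn2, Mmp8 and Mmp9, the top 10% of cells held 32.5% to 36.6%, 30.8% to 42.1% and 29.2% to 37.5% of the UMIs. Lcn2 and Mmp8, though specific granule genes, were in this spread more evenly than Ngp. Ltf and Camp were found in too few cells for this measure.

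All of Ngp, Camp and Ltf were detected in 18.5%, 3.01%, 5.15% and 15.6% of neutrophils (254, 20, 121 and 225 cells). None of them was detected in 31.4%, 53.7%, 39.3% and 22.0% (432, 357, 924 and 316 cells). Samples 1 and 4 had the larger shares with all 3 genes, and sample 2 the largest share with none. Neutrophils were also deepest in samples 1 and 4 and shallowest in sample 2. These shares were not read at equal depth, so the part of depth in this order was not tested. Cells with all 3 held 69.7%, 24.4%, 43.9% and 58.5% of the neutrophils' Ngp UMIs. They were also deeper, with medians of 8423, 4840, 6263 and 7889 UMIs against 3818, 2404, 2716 and 3053 in cells with none.

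**Figure D3:**
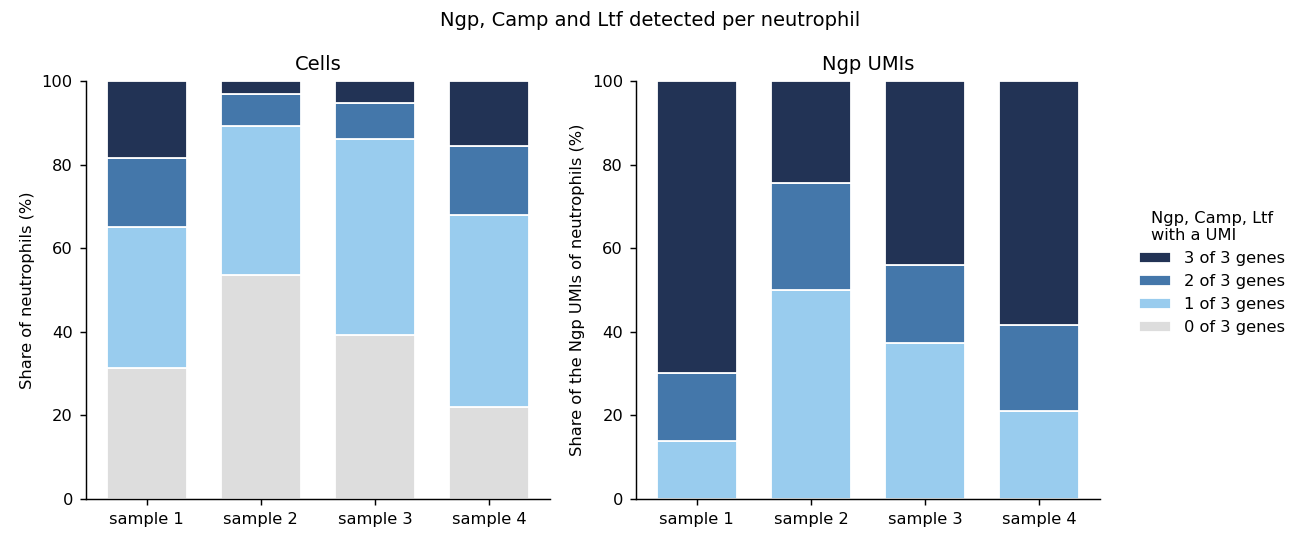
Share of neutrophils (left, y axis in percent) and share of the Ngp UMIs of neutrophils (right, y axis in percent) by how many of Ngp, Camp and Ltf had a UMI in the cell, 1 bar per sample. Cells with all 3 genes are 3.01% to 18.5% of neutrophils and hold 24.4% to 69.7% of the Ngp UMIs.

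Specific granule genes were detected together. Camp and Ltf were both found in 256, 20, 121 and 225 neutrophils, which was 2.46, 5.37, 5.04 and 2.64 times the number given by independent detection. At 1000 UMIs per cell it was 4.33, 8.89, 10.1 and 4.39, on 69, 6, 46 and 65 cells. Such a ratio cannot exceed the inverse of the larger share, so ratios of different pairs or depths are not compared. Of neutrophils with a Camp UMI, 64.6%, 29.9%, 48.2% and 68.4% had Ltf, against 26.2%, 5.56%, 9.57% and 25.9% of all neutrophils. Of neutrophils with a Camp UMI, a median of 97.1% over the samples (93.6% to 99.1%) had a Ngp UMI. Ngp and Camp were together 1.29 to 2.18 times and Ngp and Ltf 1.25 to 1.64 times as often as independent genes would be. Mmp9 was found in 73.8% to 93.0% of neutrophils, which leaves little room for a ratio with it to differ from 1.

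Joint detection of primary and specific granule genes rested on few cells. A UMI of Elane, Mpo or Prtn3 was found in 126 neutrophils, of which 2 had 2 of the genes and none had all 3. Of these, 42, 3, 24 and 34 in samples 1 to 4 also had Ngp, Camp or Ltf, 1.23, 1.62, 1.28 and 1.06 times the number given by independence. At equal depth 10 cells remained in all, and the median ratio was 0.899, with a range of 0 to 1.16. At these counts no joint detection beyond independence was detectable. Cebpe was found with Ngp, Camp or Ltf in 24 of 25, 5 of 5, 31 of 34 and 33 of 36 neutrophils that had it, 1.18 to 2.16 times the number under independence. At equal depth it was 3 of 4, 2 of 2, 7 of 9 and 9 of 11, so 1.32 to 3.14 times on 21 cells in all.

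**Figure D4:**
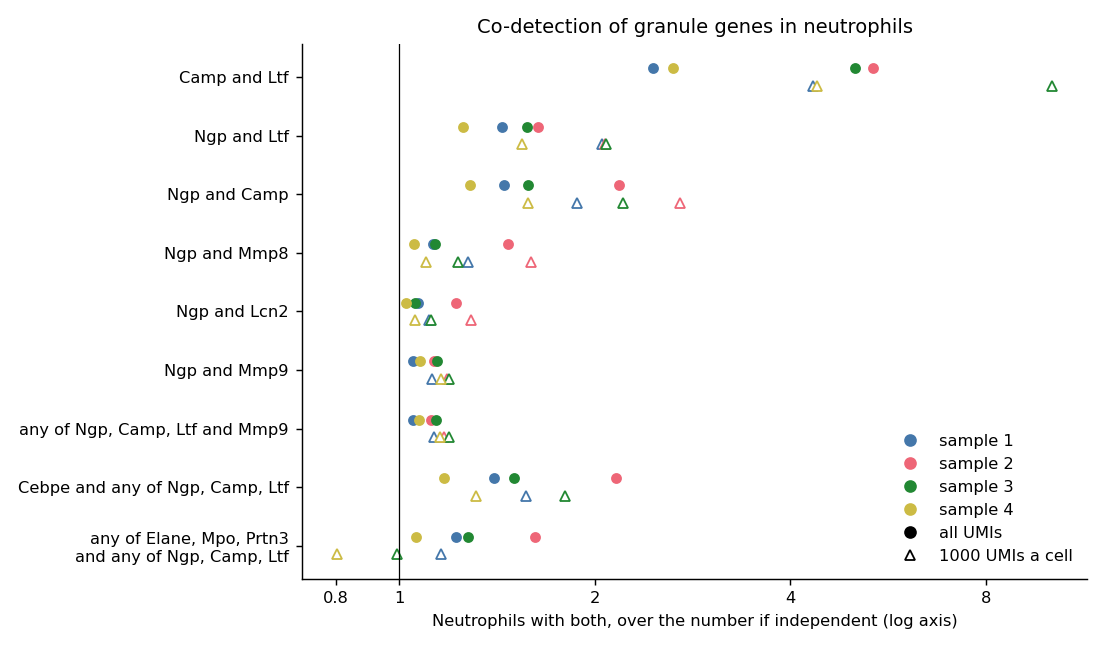
Number of neutrophils with UMIs of both genes or gene groups over the number expected if they were independent (x axis, log scale, with a line at 1) for 9 pairs, 1 mark per sample, with filled marks for all UMIs and open marks for 1000 UMIs per cell. Camp and Ltf lie at 2.46 to 5.37 with all UMIs, the primary and specific genes lie around 1 at equal depth, and marks with under 1 cell expected are not drawn.

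Other genes of neutrophils differed between cells with all of Ngp, Camp and Ltf and cells with none. The cells were chosen by these 3 genes, and no test was made over cells. To limit the effect of depth, each contrast was repeated in cells of 4000 to 8000 UMIs, a range chosen after the data were seen (15 to 105 cells with all 3 and 24 to 187 with none). Lcn2 was at 8134, 8785, 6244 and 6806 CPM in cells with all 3 and at 2818, 2175, 1869 and 2258 CPM in cells with none, a ratio of 2.89 to 4.04 (2.04 to 3.21 at matched depth). Mmp8 was 2.22- to 5.18-fold higher (1.99 to 3.14 at matched depth) and Mmp9 1.77- to 2.77-fold higher (1.72 to 2.70). Cebpe was at 5.77, 11.0, 7.07 and 7.44 CPM against 0.554, 0, 1.04 and 2.70 CPM, from 36 and 7 UMIs. At matched depth it was at 4.46, 12.8, 11.2 and 2.98 CPM against 0.968, 0, 2.70 and 4.60 CPM, so lower in sample 4.

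Over all 5951 genes with at least 40 UMIs in each set of cells, 15.2% were higher in cells with all 3 genes in 4 of 4 samples and 26.5% lower (11.5% and 18.9% at matched depth), with a median ratio of 0.936. Of 13 specific granule genes among them, 12 were higher in 4 of 4 samples, also at matched depth, and their median ratio was 3.20 (2.72 at matched depth). Itgb2l, an integrin-like gene, was 11.0- to 25.4-fold higher, Cd177, a surface protein of neutrophils, 4.82- to 9.21-fold, and Cybb, a subunit of the NADPH oxidase, 2.41- to 4.09-fold. Of the list of other primary granule and promyelocyte genes, 3 reached 40 UMIs in each set of cells. Serpinb1a, an inhibitor of granule proteases, was higher by 8.90- to 15.8-fold, Mgst1 was higher, and Igsf6 was lower. At matched depth 2 were higher and none lower. The primary granule genes Elane, Mpo and Prtn3 did not reach 40 UMIs and were not read here. They had 0, 4 and 24 UMIs in cells with all 3 genes and 0, 5 and 18 in cells with none. Of 10 mature neutrophil genes, none was higher and 9 were lower in 4 of 4 samples, with a median ratio of 0.499 (0.483 at matched depth). Of these 10, 3 helped to set the neutrophil class, and of the other 7, 7 were lower (6 at matched depth). Il1b, the interleukin 1 beta gene, was at 1137, 614, 1302 and 948 CPM in cells with all 3 and at 3519, 3871, 3706 and 3325 CPM in cells with none. Ccrl2, a chemerin-binding receptor gene, had ratios of 0.0953 to 0.257, Ptgs2, which makes prostaglandins, 0.164 to 0.333, and Csf3r, the receptor of G-CSF, 0.388 to 0.432. Of the 9 gelatinase and secretory granule genes 6 were higher and 2 lower (5 and 2 at matched depth), and of 6 regulators 1 was higher and 4 lower. S100a8, which helped to set the class, was 1.96- to 2.36-fold higher.

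**Figure D5:**
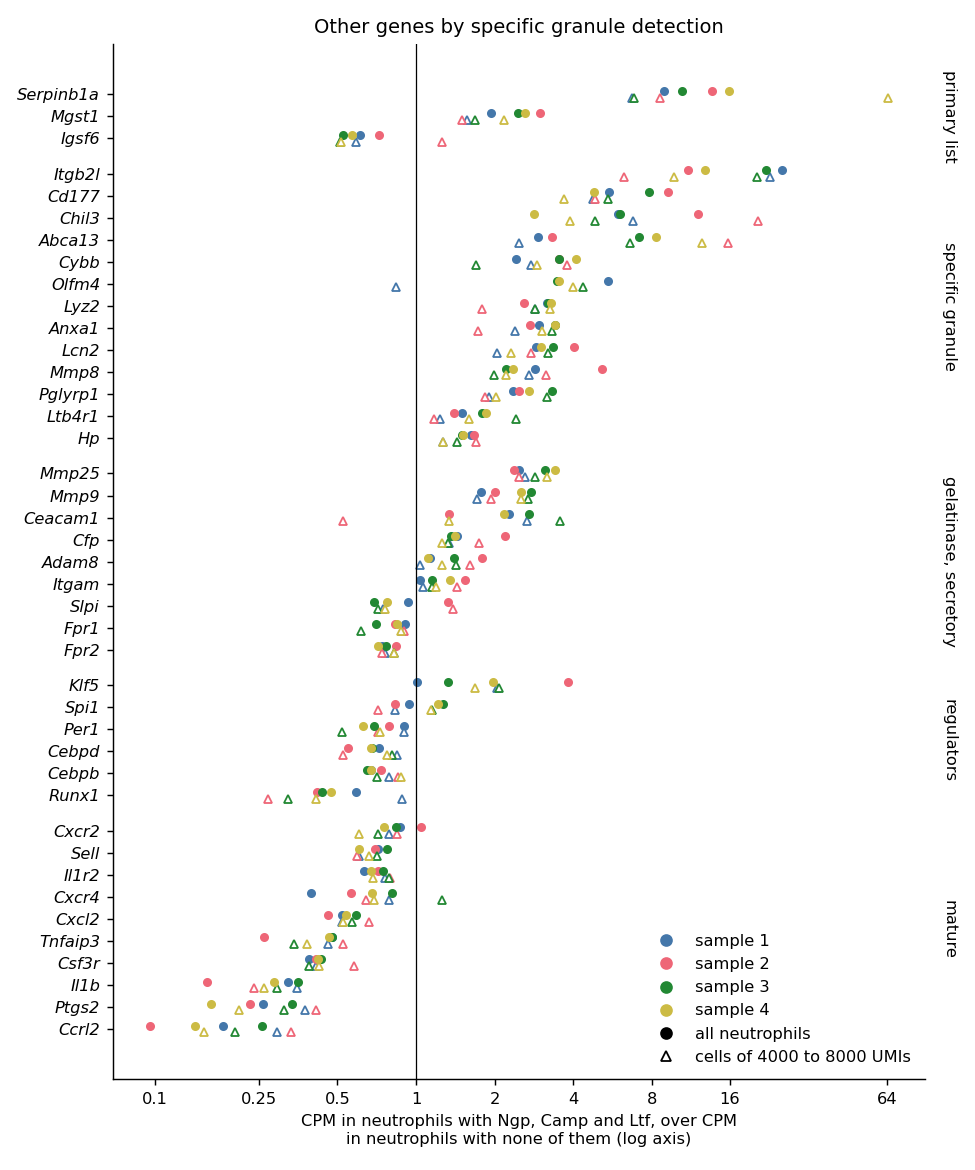
Level (CPM) of 41 genes in neutrophils with Ngp, Camp and Ltf over that in neutrophils with none of them (x axis, log scale, with a line at 1), grouped by list, 1 mark per sample, filled for all neutrophils and open for cells of 4000 to 8000 UMIs, with 3 points at 0 not drawn. Specific granule genes lie to the right of 1 and mature neutrophil genes to the left, with Il1b, Ptgs2 and Ccrl2 farthest left.

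The other genes of the granule programme were also set against monocytes. Over all 9965 genes, the median log2 ratio of neutrophils to monocytes was -0.58. Of these genes, 2.78% were at least 4-fold higher in neutrophils in all samples and 8.4% at least 4-fold lower. Of 12 other specific granule genes that could be read, 5 were at least 4-fold higher in neutrophils in all samples (Cd177, Pglyrp1, Olfm4, Itgb2l and Abca13) and 3 at least 4-fold lower, and the median log2 ratio was 2.18. Pglyrp1, a peptidoglycan-binding protein, was at 692 to 1333 CPM in neutrophils and 6.52 to 15.5 CPM in monocytes. The 3 that were lower were Chil3, a chitinase-like gene, at 66.9 to 819 against 1484 to 9087 CPM, Lyz2, the lysozyme gene, at 170 to 494 against 1850 to 4550 CPM, and Cybb, at 114 to 189 against 803 to 891 CPM. These are made by monocytes and macrophages as well.

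Of 5 other primary granule and promyelocyte genes, Serpinb1a was higher (28.6 to 70.9 against 4.57 to 8.24 CPM) and Gstm1, a glutathione transferase gene, lower (1.005 to 3.18 against 15.5 to 21.3 CPM), with a median log2 ratio of 0.41. Of 8 gelatinase and secretory granule genes 2 were higher, Mmp25 and Fpr1, the formyl peptide receptor gene, and none lower. Of 8 regulators, Klf5 was higher and Cebpa, which acts early in the myeloid line, lower, at 6.82 to 12.96 against 29.9 to 62.9 CPM (median 0.92). Over all genes 2.78% were as much higher and 8.4% as much lower, so counts of 1 gene in such short lists are not results. Cebpb, which is used in emergency granulopoiesis, was at 2241 to 2407 CPM in neutrophils and 1045 to 1243 CPM in monocytes. The list of mature neutrophil genes shares Csf3r, Cxcr2 and Il1r2 with the markers that set the class, so its count is not a result.

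Across 40 sums of a class in a sample, the genes whose log2(CPM + 1) was most like that of Ngp were Asprv1 (Pearson r = 0.967), Retnlg (0.966), Camp (0.965), Stfa2l1 (0.962) and Prok2 (0.960), out of 13354 genes. Retnlg was among the markers of the class. Lcn2 was most like Bmx (0.875), Nadk (0.857), Ubtd1 (0.854), Cdc42ep2 (0.852) and Rnf144a (0.846). The values for Mpo, Card9 (0.619), Mff (0.613), Gm20528 (0.606), Ptgs2os2 (0.591) and Vps26a (0.590), rest on few UMIs. Prtn3, added after its values were seen, was most like Ifi204 (0.906), Gab1 (0.887) and Mmp19 (0.880). These are descriptions, since the sums share 4 libraries and the classes differ in depth.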

How the data were processed

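The authors measured colonic CD45+ cells by droplet single-cell RNA sequencing. The deposited values are raw UMI counts per gene and cell, 1 matrix per sample. The submitters' processing notes name Cell Ranger 5.0.0, STAR, Seurat and mm10, while the matrix headers name Cell Ranger 7.0.1. The annotation version and the use of strand in counting are not given in the sources used here.

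Cells with at least 200 genes and under 20% mitochondrial UMIs were kept (43432 cells), and the 3882 highest Scrublet scores were removed as doublets (0.8% of cells per 1000 cells), since the automatic threshold called 0 to 5369 cells per sample. A cell was placed in a class where its mean log marker score passed a threshold, set at the valleys of the score histograms after they were seen; cells past several thresholds were called mixed (5722) and those past none unclassified (2772). UMIs were summed per class and sample. The named genes are the 10 members, the fixed granule and marker lists, and the 5 genes most like Ngp, Lcn2 and Mpo among genes with at least 10 CPM in 1 sum. The members and lists were chosen with earlier results of these data known. Since the labels give no genotype, no test between samples was made. The cell filter, doublet removal, naming of cells, neutrophil gate, thinning, fold and sample left out were varied. The fold call between classes, the thinning and the co-detection ratio were tested on simulated counts. The placing of cells in classes was not. Python 3.11.15, scanpy 1.11.5, igraph 0.11.9, numpy 2.4.6, scipy 1.17.1 and scikit-learn 1.9.0 were used, and coordinates come from GENCODE M21 (GRCm38).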

Additional observations from a re-analysis of the deposited data

How the results depend on the processing

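Values are medians over the 4 samples. The count of granule genes at least 4-fold higher in neutrophils than in monocytes was 6. It stayed 6 with other cell filters, doublet removal, cell naming and gates. At an 8-fold limit Mmp8 fell out and 5 remained. No share over all genes stands beside these alternative counts. The share of neutrophils moved from 16.4% to 15.6% without doublet removal. Ngp was at 2256 CPM in neutrophils, 2159 without doublet removal, 2367 with cells named by clusters, 2324 with a gate without late markers, and 2173 to 2339 with 1 sample left out. The share of neutrophils with Ngp was 63.2%, 67.2% with that gate, 44.1% at 1000 UMIs per cell (a random draw separate from that behind the shares per sample), and 59.4% to 67.0% with 1 sample left out. Co-detection of Camp and Ltf was 3.84 times independence, 6.64 at 1000 UMIs and 2.64 to 5.04 with 1 sample left out, so it rests on which samples are kept and exceeded 1 in each. For primary with specific genes the ratio was 1.25 and 1.23 to 1.27 with 1 sample left out, and at 1000 UMIs 0.899, on the other side of 1, on 10 cells. Named by clusters, cells gave 225 CPM of Lcn2 in fibroblasts against 172, 537 against 698 in endothelial cells, and 4.09 against 1.58 CPM of Prtn3 in B cells, then above the 3.10 CPM of neutrophils, while Prtn3 in monocytes stayed between 34.8 and 35.6 CPM in all cell alternatives, added after the data were seen.

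No comparison between groups of samples, paired or not, was possible because the labels give the samples no group. Neutrophils and monocytes were compared within each sample, without a test. Depth limits Elane, Mpo, Cebpe and the joint detection of primary and specific genes, which rest on few UMIs. Stromal classes held few cells. Lcn2 UMIs were found in every class read, and mice within a sample could not be told apart.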

Other observations

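A single kept cell carried UMIs of all 3 primary granule genes. It lay in sample 3, had 26000 UMIs and passed no class gate. It had 22 UMIs of Prtn3, 10 of Ctsg, the cathepsin G gene, 3 of Mpo and 1 of Elane, with 4 of Kit, 3 of Flt3 and 1 of Cd34, genes of blood cell progenitors. It had 0 UMIs of Ngp, Ltf and Camp. It was named after its values were seen, and as 1 cell it gives no rate.

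Genes of cell division were rare in neutrophils on either side of the specific granule contrast. Mki67, a marker of cycling cells, had 12 UMIs in the neutrophils with all of Ngp, Camp and Ltf and 40 in those with none. Its level was 2.47, 0, 3.54 and 1.49 CPM in the first and 4.43, 6.44, 6.60 and 6.29 CPM in the second. At matched depth Mki67 was at 0, 0, 5.61 and 2.98 against 1.94, 8.15, 1.35 and 0 CPM, so higher in samples 3 and 4. Top2a, a DNA topoisomerase gene, had 13 and 34 UMIs, at 1.24, 0, 4.72 and 2.98 against 4.43, 7.51, 5.56 and 2.70 CPM. The cells with none were more numerous but shallower. Free RNA and cells of other types in the same droplet were not separated from these counts.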
